A study of Mus musculus with 192 samples.

Results

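A set of 6 genes is described here across a grid of mouse brain voxels, the small cubes into which a section of the brain was cut: Vxn, Dkk3, Chn1, Rcor3, Osbpl1a and Cabyr. They are 6 of the 15608 genes measured, and they were taken by gene symbol from the array annotation. They were chosen by their measured values in these same data, high in grid rows F and G relative to rows A and B, so that difference is a description here and carries no test. They fill 7 rows of the table of ratios, 2 of which belong to Chn1, and all 6 passed the filter on missing values.

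The animals were C57BL/6 male mice of postnatal day 56, with no treatment or genetic change named. RNA of each voxel position came from pooled brain voxels, per the labels, and was set on a 2-colour array against RNA of the whole mouse brain as the control. The grid had 68 positions, named by a row (A to G) and a column (1 to 11). There were 192 arrays in 3 independent harvests, called datasets 1, 2 and 3, with 59, 68 and 65 arrays. A position is the group and a dataset is the replicate, so n is at most 3. Voxel RNA carried Cy3 in datasets 1 and 3 and Cy5 in dataset 2, so dye and harvest cannot be told apart.

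Every level below is a centred log2 ratio: 0 lies near the median of a gene's own values over the arrays, and a difference of 1 is 2-fold. The gene's level relative to whole brain had been removed by centring, so positions can be compared with each other but genes cannot. That a higher value means more RNA in the voxel is likely, from regional marker genes, but is not stated in the sources used here. In such bulk samples, fewer cells of a type and less RNA per cell cannot be told apart.

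The cerebral cortex is a layered sheet over the top and sides of the forebrain, rich in excitatory projection neurons, and it surrounds the striatum, the thalamus and, below, the hypothalamus. The 6 genes belong to no single pathway. Vxn (vexin) promotes neuronal differentiation together with proneural transcription factors. Dkk3 encodes a secreted glycoprotein of the Dickkopf family, whose founding members block Wnt receptors. Chn1 encodes alpha-chimaerin, which switches off the small GTPase Rac downstream of ephrin receptors in axons and dendritic spines. Rcor3 is a scaffold of the CoREST family, which joins histone demethylase and deacetylase enzymes in repressor complexes. Osbpl1a encodes an oxysterol-binding protein that senses cholesterol on late endosomes. Cabyr, a calcium-binding protein, is best known from the fibrous sheath of the sperm tail.

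The labels give no anatomical direction, so the grid was divided into 9 zones by row and column. Row G and row F are the uppermost rows as named, with 8 and 9 positions. In rows C to E, columns 1 and 11 form the lateral edge (6 positions), columns 2 and 10 the next column inward (6), columns 3, 4, 8 and 9 the intermediate columns (12), and columns 5 to 7 the middle block (9). In rows A and B, the outermost positions A3, A10, B2 and B11 form the lower rim (4), columns 5 to 7 the lower middle (6), and the rest the lower intermediate zone (8). Regional marker genes placed these zones. The 9 measured of 31 listed markers of cortical excitatory neurons had their highest mean in row F (0.41) and row G (0.36), then at the lateral edge (0.20), and their lowest in the lower middle (-0.59). The 4 measured of 9 thalamic markers peaked in the middle block (1.07). The 7 measured of 21 striatal markers peaked in the intermediate columns (0.94), and the 6 measured of 30 markers of the hypothalamus and basal forebrain in the lower middle (0.87). By those markers rows F and G can be called cortex-like, while the word dorsal rests on the grid rows alone. The 7 measured of 13 hippocampal genes, Dkk3 among them, also had their highest means in row F (0.24) and row G (0.18). Several defining cortical genes, among them Slc17a7, Tbr1 and Neurod6, were not measured here.

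Row D of dataset 2 stood apart, and the edge comparisons that use it are given with and without it. From D1 to D7, Vxn in dataset 2 read -2.53, -2.41, -2.36, -2.26, -1.46, 1.12 and 0.93. In dataset 1 the same positions read 0.68, 1.12, -0.97, -1.70, -3.11, -2.92 and -2.51. In dataset 1, D1 and D2 were thus high and D5 to D7 low. In dataset 2, D1 to D5 were low, and D6 and D7 high. The other side of the row showed no such reversal. Vxn at D10 and D11 read 1.28 and 0.95 in dataset 2, and 1.28 and 1.94 in dataset 1. D8 and D9 were low in both of these datasets. The labelled positions were kept. Row G of dataset 3 was the least complete, with 12.3% of values unmeasured against 0.70% and 1.58% in row G of datasets 1 and 2, and its array G8 lacked 41.5%. Of the 6 genes' own values, Vxn lacked 2 (B9 and C5, both of dataset 3), Dkk3 lacked 1 (G9 of dataset 1) and Cabyr lacked 4. Chn1, Rcor3 and Osbpl1a were measured on all 192 arrays.

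**Figure D1:**
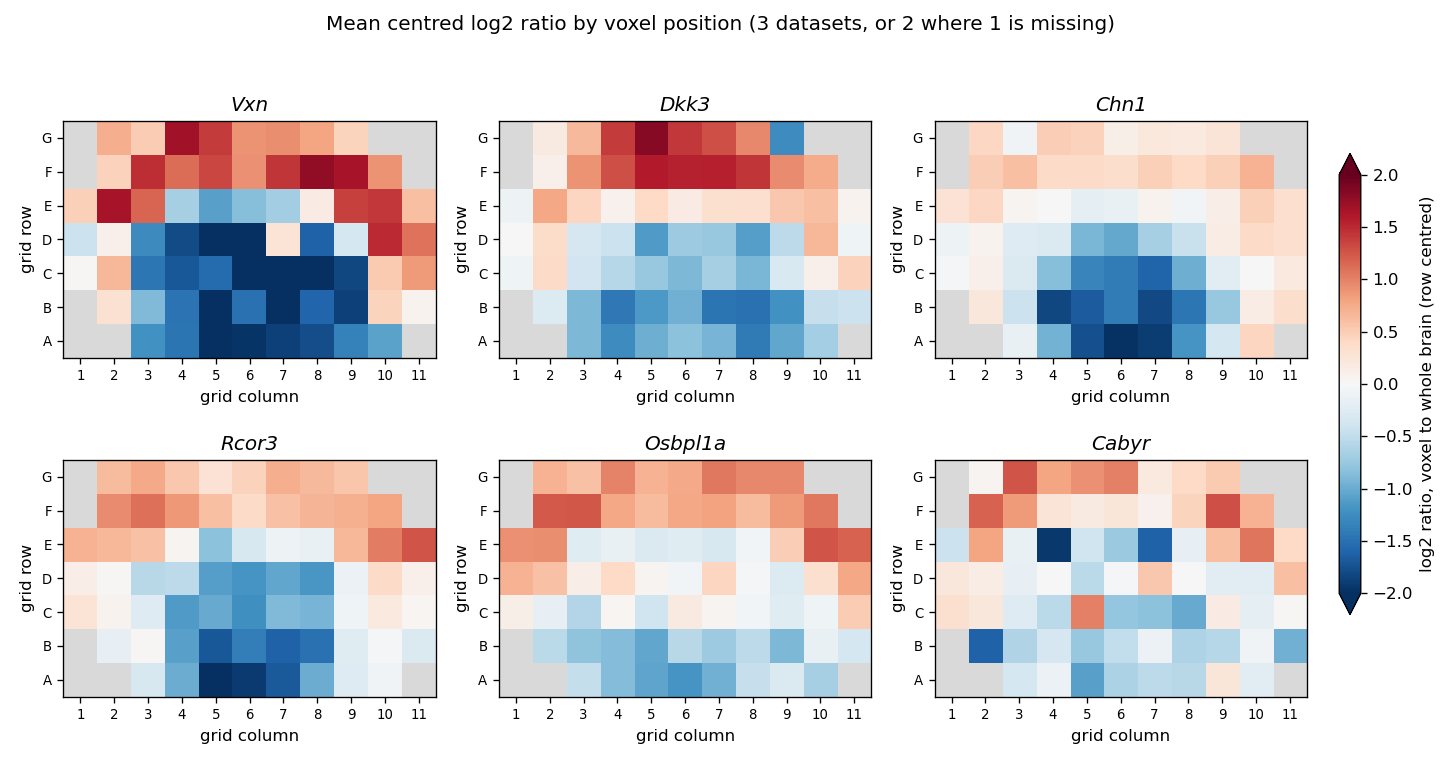
Mean centred log2 ratio of each gene at each grid position (colour, in log2 units, clipped at -2.0 and 2.0), with grid columns 1 to 11 across and rows A to G upward; grey cells hold no voxel. Rows F and G are red for all 6 genes apart from single cells (Dkk3 at G9, Chn1 at G3), the middle of the grid is blue for Vxn, Chn1 and Rcor3, and Cabyr is patchy.

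The rows that chose the genes differed by between 1.21 and 2.38, and all 6 genes had every dataset mean of rows F and G above every dataset mean of rows A and B. That holds for 3.74% of all genes, and the choice of the genes fixes it. Vxn showed the largest difference, 2.38 ± 0.39 (SD, n = 3), and Cabyr the smallest, 1.21 ± 0.09. Beyond this shared step the maps of the 6 genes differed in part, while those of Vxn, Chn1 and Rcor3 stayed alike. Within rows C to E, the pairs of these 3 genes correlated over single arrays at 0.678 to 0.851 in the 3 datasets. Chn1 and Cabyr gave -0.13 to 0.21 there.

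Vxn had the widest range. Its position means ran from -2.91 ± 2.17 (n = 2) at C7 to 1.77 ± 0.39 (n = 3) at F8. The order of its zones was row F (1.25 ± 0.23), the next column inward (0.98 ± 0.37), row G (0.89 ± 0.22), the lateral edge (0.44 ± 0.55), the lower rim (-0.49 ± 0.35), the intermediate columns (-0.96 ± 0.17), the lower intermediate zone (-1.13 ± 0.48), the middle block (-1.53 ± 0.64) and the lower middle (-1.91 ± 0.51). Neighbours in this order differed by more than the SD of their difference only from row G to the edge, from the edge to the lower rim, and from there to the intermediate columns. The high values of Vxn thus formed an arch over rows F and G that continued down the flanks of row E. In row E, columns 2, 3, 9 and 10 read 1.34, 1.62 and 1.29 in datasets 1 to 3, and in row C the same columns read -0.54, -0.51 and -0.51. The 2 sets did not overlap, and they were 1.93 ± 0.17 apart, as described after the maps were seen. Of all genes, 1.83% had such a gap in that direction. It was not particular to Vxn, since the other genes of the set did not overlap there either. They differed by 0.98 ± 0.46 (Osbpl1a), 0.76 ± 0.18 (Rcor3), 0.71 ± 0.55 (Cabyr), 0.66 ± 0.21 (Dkk3) and 0.41 ± 0.24 (Chn1).

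Dkk3 was high in a block at the centre of rows F and G. Its highest positions were G5 (1.82 ± 0.01, n = 2), F5 (1.58 ± 0.08, n = 3), F7 (1.56 ± 0.18) and F6 (1.54 ± 0.19). The zones ran from row F (1.13 ± 0.04), row G (0.85 ± 0.50) and the next column inward (0.48 ± 0.11) through the lateral edge (0.05 ± 0.32), the intermediate columns (-0.28 ± 0.42), the middle block (-0.45 ± 0.51) and the lower rim (-0.55 ± 0.30) to the lower middle (-1.03 ± 0.34) and lower intermediate zone (-1.06 ± 0.36). The steps that exceeded their SD were those from the next column inward to the edge (0.44 against an SD of 0.43), from the edge to the intermediate columns, and from the lower rim to the lower middle. Within rows F and G, columns 5 to 7 read 1.64, 1.42 and 1.49 in datasets 1 to 3, and columns 2, 3, 9 and 10 read 0.67, 0.67 and -0.33. The dataset means of the 2 sets of columns did not overlap, although single positions did (in dataset 2, G7 at 0.84 lay below F3 at 1.15). The pattern was noticed in the map and not tested. The difference was 1.18 ± 0.57 for Dkk3, against 0.28 ± 0.36 for Vxn, -0.06 ± 0.20 for Chn1, -0.28 ± 0.05 for Rcor3, -0.16 ± 0.17 for Osbpl1a and -0.51 ± 0.13 for Cabyr. Of all genes, 1.79% had columns 5 to 7 wholly above the outer columns, and Dkk3 was the only one of the 6 among them. The single array at G9 of dataset 3, at -3.30, lowers its outer columns, and G9 of dataset 2 read 0.79.

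**Figure D2:**
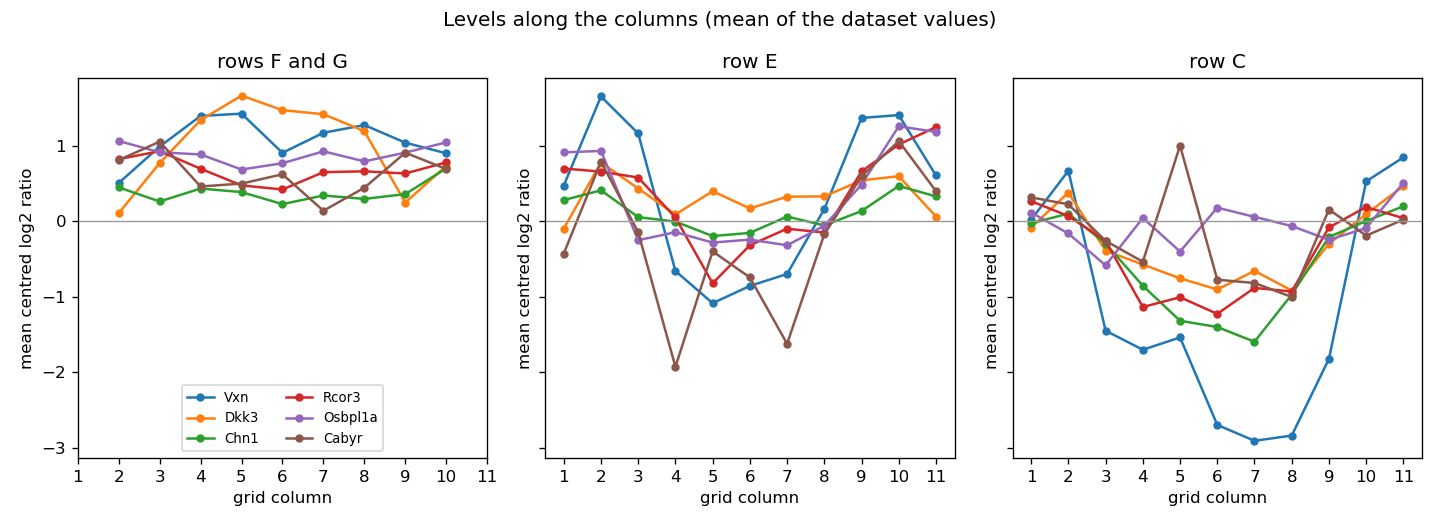
Mean centred log2 ratio (log2 units, mean of the dataset values) of the 6 genes along the grid columns in rows F and G together, in row E and in row C; each line is 1 gene. Dkk3 is highest at column 5 of rows F and G, Vxn peaks at columns 2 and 10 of row E and is lowest at columns 6 to 8 of row C, and Osbpl1a lies between -0.58 and 0.51 across row C.

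Chn1 and Rcor3 had maps that resembled each other most among the 15 pairs of the 6 genes. Over single arrays their correlations were 0.862, 0.886 and 0.845 within datasets 1, 2 and 3. Arrays share the reference RNA and the voxels, so these values are descriptions. Both genes were low around the lower middle: Chn1 was lowest at A6 (-1.98 ± 0.31, n = 3) and Rcor3 at A5 (-2.01 ± 0.78, n = 3). Their high ends differed, since Chn1 peaked at F10 (0.70 ± 0.02, n = 2) and Rcor3 at E11 (1.25 ± 0.24, n = 3). For Chn1 the zones were row F (0.46 ± 0.10), the next column inward (0.24 ± 0.20), row G (0.23 ± 0.20), the lower rim (0.18 ± 0.11), the lateral edge (0.17 ± 0.37), the intermediate columns (-0.26 ± 0.17), the middle block (-0.77 ± 0.33), the lower intermediate zone (-0.80 ± 0.05) and the lower middle (-1.73 ± 0.31). Its steps exceeded their SD from row F to the next column inward, from the edge to the intermediate columns, from there to the middle block (0.51 against an SD of 0.50), and from the lower intermediate zone to the lower middle. For Rcor3 they were row F (0.74 ± 0.10), row G (0.62 ± 0.33), the lateral edge (0.42 ± 0.44), the next column inward (0.39 ± 0.31), the lower rim (-0.29 ± 0.32), the intermediate columns (-0.34 ± 0.40), the lower intermediate zone (-0.68 ± 0.22), the middle block (-0.86 ± 0.39) and the lower middle (-1.69 ± 0.44). Its steps exceeded their SD from row G to the edge, from the next column inward to the lower rim, from the intermediate columns to the lower intermediate zone, and, by little, from the middle block to the lower middle (0.83 against an SD of 0.83).

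The 250 bases before the starts of these 2 genes are shown, from RefSeq on build GRCm38.p6. They are read 5′ to 3′ on the gene's own (minus) strand. Of the 6 genes, 2 were found in the promoter table used here. The capitals mark the GC box GGGCGG on either strand (CCGCCC on the other).
Rcor3, chr1:192138041-192138290: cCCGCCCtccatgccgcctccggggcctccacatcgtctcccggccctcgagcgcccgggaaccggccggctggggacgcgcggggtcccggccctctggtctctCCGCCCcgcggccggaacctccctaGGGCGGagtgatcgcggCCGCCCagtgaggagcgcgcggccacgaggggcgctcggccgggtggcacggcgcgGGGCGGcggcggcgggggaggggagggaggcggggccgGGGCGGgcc
Chn1, chr2:73775347-73775596: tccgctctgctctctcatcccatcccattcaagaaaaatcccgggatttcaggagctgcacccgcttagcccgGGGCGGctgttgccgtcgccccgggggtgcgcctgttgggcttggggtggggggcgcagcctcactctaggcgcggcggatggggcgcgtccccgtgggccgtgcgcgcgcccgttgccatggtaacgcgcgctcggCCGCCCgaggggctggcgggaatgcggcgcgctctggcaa
Chn1, second start, chr2:73660424-73660673: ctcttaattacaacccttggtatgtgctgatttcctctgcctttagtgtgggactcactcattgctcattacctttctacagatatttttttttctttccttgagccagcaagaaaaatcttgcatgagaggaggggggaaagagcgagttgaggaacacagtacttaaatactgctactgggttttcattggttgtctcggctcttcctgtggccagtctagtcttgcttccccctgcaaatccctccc
The Rcor3 window holds 6 GC boxes, 39 CpG dinucleotides and 82.8% G and C bases. The first Chn1 window holds 2 boxes, 31 CpG and 71.6% G and C, and the second holds no box, 2 CpG and 45.2% G and C. Over 32851 promoters of the same length the median G and C share was 52.4%, and 32.7% held a GC box. None of the 3 windows held the E-box CAGATG, found in 14.4% of all promoters, on either strand. The same was true of the cyclic AMP response element TGACGTCA, found in 1.55%, and of the box TATAAA, found in 12.4%. These motifs are matches of letters and are not shown to be sites of binding. The array spots do not tell which start of Chn1 was in use.

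Osbpl1a and Cabyr lie next to each other on the chromosome, and their annotated spans overlap. Osbpl1a had its highest positions at E10 (1.26 ± 0.58, n = 3) and F3 (1.25 ± 0.33) and its lowest at A6 (-1.18 ± 0.49). Its zones ran from row F (0.90 ± 0.32), row G (0.87 ± 0.26), the lateral edge (0.70 ± 0.65) and the next column inward (0.48 ± 0.43) to the intermediate columns (-0.04 ± 0.20), the middle block (-0.07 ± 0.15), the lower rim (-0.49 ± 0.34), the lower intermediate zone (-0.59 ± 0.37) and the lower middle (-0.89 ± 0.42). The steps beyond their SD were those into the intermediate columns, into the lower rim and from there to the lower intermediate zone. Cabyr was ordered row G (0.81 ± 0.66), row F (0.59 ± 0.32), next column inward (0.30 ± 0.11), lateral edge (0.20 ± 0.74), lower intermediate zone (-0.28 ± 0.28), intermediate columns (-0.29 ± 0.34), middle block (-0.35 ± 0.34), lower middle (-0.62 ± 0.52) and lower rim (-0.89 ± 0.61). Only its last step exceeded its SD. Its lowest positions, E4 (-1.93 ± 1.72), E7 (-1.62 ± 0.65) and B2 (-1.61 ± 0.66, n = 2), did not adjoin each other.

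Over the whole grid the map of Cabyr was poorly repeated. Across positions measured in both datasets, its levels correlated at 0.392 between datasets 1 and 2 (57 positions), 0.105 between 1 and 3 (53) and 0.335 between 2 and 3 (62). The other 5 genes gave between 0.587 and 0.835 in every pair of datasets, with Chn1 at 0.835 and Dkk3 at 0.812 between datasets 1 and 3. These correlations run over positions of one grid and are descriptions. Despite the overlap of their genes, Osbpl1a and Cabyr correlated over single arrays at only 0.513, 0.681 and 0.280 in datasets 1 to 3.

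**Figure D3:**
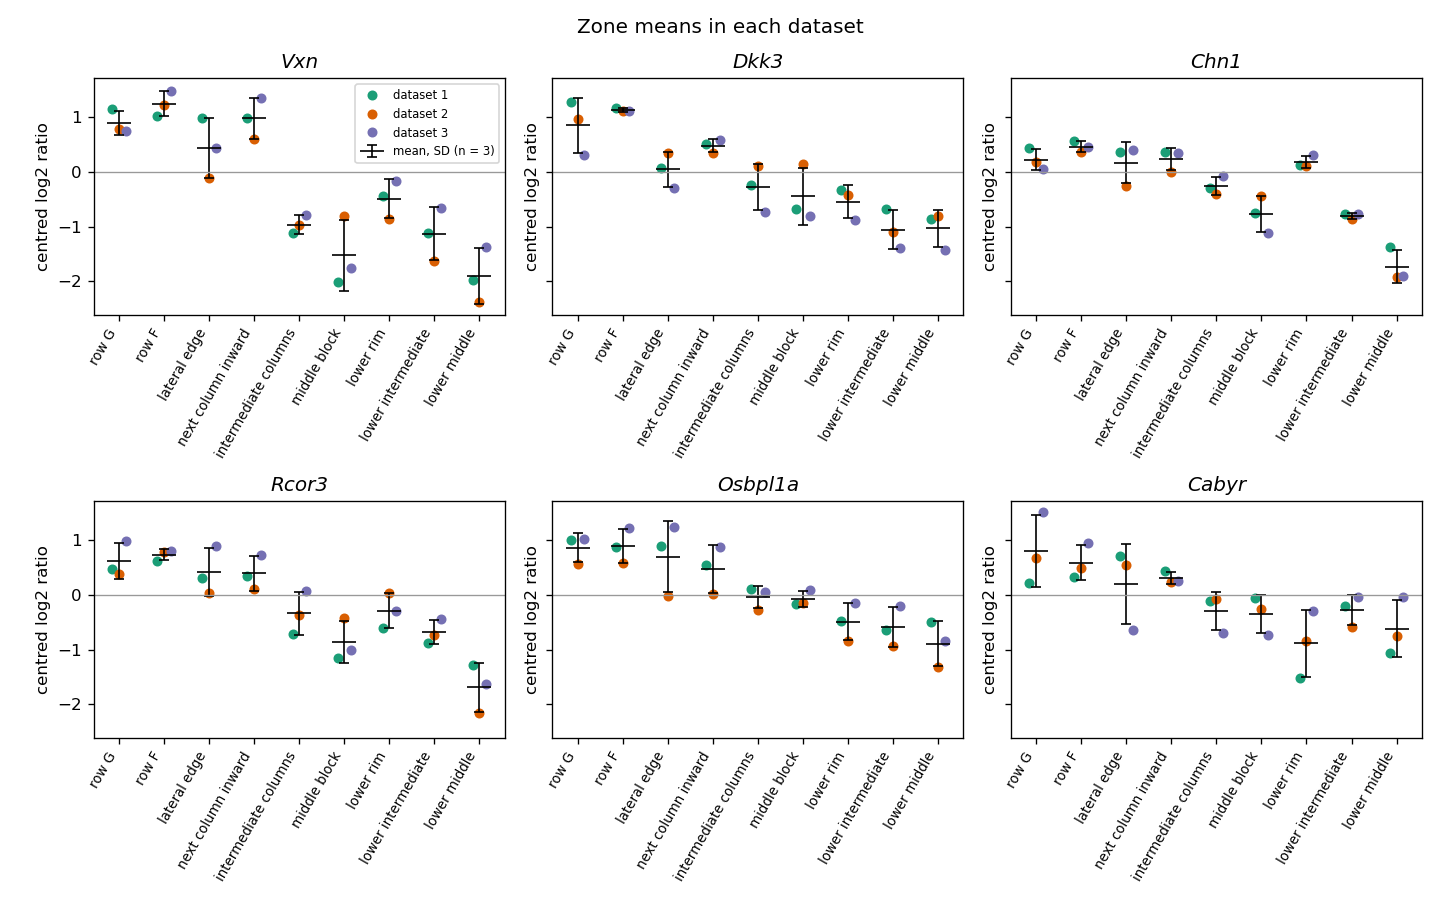
Mean centred log2 ratio (log2 units) of each gene in the 9 zones; coloured points are the 3 datasets, and the black bars are their mean and SD (n = 3). Chn1 lies between 0.17 and 0.23 in row G, at the lateral edge and at the lower rim, while the other 5 genes are below 0 on average at the lower rim.

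The 3 surfaces of the grid were then set side by side: row G, the lateral edge and the lower rim. Row G and the lower rim lie on the 2 sides of the row difference that chose the genes, so these values carry no test. The mean levels of Chn1 on the 3 surfaces lay close together. Its dataset means were 0.44, 0.18 and 0.06 in row G, 0.37, -0.25 and 0.39 at the lateral edge, and 0.13, 0.10 and 0.31 at the lower rim. The 3 sets overlapped, and the surfaces did not keep one order over the datasets. The difference between row G and the lower rim was 0.04 ± 0.28 (n = 3), and that between row G and the edge was 0.05 ± 0.38. That these levels are equal was not tested. Of all 6 genes, Chn1 alone had its lower rim wholly above the middle block (0.95 ± 0.44), as 3.86% of all genes did. Rcor3 (0.57 ± 0.13) and Vxn (1.04 ± 0.95) overlapped, and Dkk3 (-0.10 ± 0.46), Osbpl1a (-0.42 ± 0.23) and Cabyr (-0.54 ± 0.94) had lower means at the rim than in the middle block. The 2 array rows of Chn1 gave 0.25 and 0.20 in row G, 0.14 and 0.20 at the edge, and 0.27 and 0.09 at the lower rim.

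The other 5 genes were lower at the lower rim than in row G with no overlap of the dataset means, by 1.38 ± 0.41 for Vxn, 1.40 ± 0.21 for Dkk3, 0.91 ± 0.48 for Rcor3, 1.35 ± 0.16 for Osbpl1a and 1.69 ± 0.15 for Cabyr. Such a gap occurred in 2.83% of all genes. Osbpl1a read 0.89, -0.03 and 1.24 at the lateral edge and 1.01, 0.56 and 1.03 in row G. The sets overlapped, and row G was higher in datasets 1 and 2 and lower in dataset 3. Dkk3 read 0.08, 0.35 and -0.29 at the edge against 1.28, 0.97 and 0.30 in row G. Row G was higher than the edge in each dataset for Dkk3 (0.81 ± 0.34), Vxn (0.46 ± 0.39) and Rcor3 (0.20 ± 0.13), although the sets overlapped across datasets. None of the 6 genes had row G wholly above the edge, as 1.33% of all genes did. From the lateral edge to the lower rim, 4 of the 6 genes (Vxn, Dkk3, Rcor3 and Osbpl1a) were lower without overlap, as were 2.89% of all genes.

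Rows C to E were not part of the row difference that chose the genes, so the lateral edge could be tested against the zones inside it. An earlier pass over these data had already found Vxn and Rcor3 lower in the middle columns than in the outer ones, so for those 2 genes the direction is not independent evidence. Against the middle block, Vxn, Chn1, Rcor3 and Osbpl1a were higher at the edge: 4 of 6 genes passed limma's test with Benjamini-Hochberg adjustment, where 0.368% of all 15472 genes passed, 0.175% in that direction (27 genes) and 0.194% in the other (30 genes). Vxn read 0.99, -0.12 and 0.43 at the edge and -2.02, -0.80 and -1.76 in the middle block. The sets did not overlap, and edge exceeded middle by 1.96 ± 1.18 (SD, n = 3; 3.90-fold; adjusted p = 0.00792), the largest excess of any gene tested. Rcor3 read 0.30, 0.04 and 0.90 against -1.16, -0.43 and -1.0, also with no overlap, a difference of 1.28 ± 0.74 (2.43-fold, adjusted p = 0.0190). Chn1 differed by 0.94 ± 0.68 (1.92-fold, adjusted p = 0.0189) and did not overlap. Osbpl1a differed by 0.77 ± 0.56 (1.71-fold, adjusted p = 0.0440), with overlap. Its edge in dataset 2 read -0.03, above the middle block of that dataset (-0.15) but below that of dataset 3 (0.10). Dkk3 (0.49 ± 0.27, adjusted p = 0.577) and Cabyr (0.55 ± 0.41, adjusted p = 0.843) did not pass.

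These calls depended on the datasets and settings. Without dataset 2, Vxn (2.60), Chn1 (1.31) and Rcor3 (1.69) kept theirs. Without dataset 1, Vxn, Chn1, Rcor3 and Osbpl1a differed by 1.44, 0.85, 1.19 and 0.63 (adjusted p = 0.431, 0.467, 0.408 and 0.536). Without dataset 3 they differed by 1.85, 0.66, 0.97 and 0.59 (adjusted p = 0.468, 0.780, 0.856 and 0.877), and Osbpl1a also lost its call without dataset 2 (1.10, adjusted p = 0.0907). With no replicate block, Vxn alone of the 6 passed, and with 1 difference per dataset in place of the pooled spread none did (adjusted p of 0.392 to 0.416 for the 4). Leaving out 6 arrays of row D of dataset 2 raised the differences to 2.29, 1.07, 1.47 and 0.79, with all 4 calls kept. Those arrays were singled out by values that ran against the order of edge and middle. The rise therefore follows in part from their choice. Quantile normalization ended all 4 (adjusted p = 0.111, 0.192, 0.275 and 0.498) at differences of 1.92, 0.94, 1.16 and 0.73. Osbpl1a also lost its call with floor values kept (adjusted p = 0.0603), at positions of all 3 datasets (adjusted p = 0.0932) and with a widened edge (adjusted p = 0.154).

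Against the intermediate columns, which hold the highest striatal marker levels, 2 of the 6 genes passed. The background was 0.536% of all genes, 0.11% higher at the edge and 0.427% lower. Vxn read -1.12, -0.98 and -0.79 in the intermediate columns, clear of its 3 edge values, and differed by 1.40 ± 0.64 (2.64-fold, adjusted p = 0.0395), again the largest excess of all genes tested. Osbpl1a differed by 0.74 ± 0.47 (adjusted p = 0.0460), with overlapping sets. Rcor3 (0.76 ± 0.31, adjusted p = 0.247), Cabyr (0.50 ± 0.40, adjusted p = 0.847), Chn1 (0.43 ± 0.26, adjusted p = 0.470) and Dkk3 (0.33 ± 0.10, adjusted p = 0.80) did not pass, although each was higher at the edge in 3 of 3 datasets. Neither call held without any one dataset: Vxn gave 1.04, 1.67 and 1.49 (adjusted p = 0.543, 0.0718 and 0.408) and Osbpl1a 0.71, 0.99 and 0.52 (adjusted p = 0.390, 0.221 and 0.727) without datasets 1, 2 and 3. With no replicate block neither passed (adjusted p = 0.137 and 1.00). Neither passed after quantile normalization (1.59 and 0.65, adjusted p = 0.131 and 0.449) or with 1 difference per dataset (adjusted p = 0.149 and 0.238). Osbpl1a also lost its call with floor values kept, at positions of all 3 datasets, with zone medians and with a widened edge (adjusted p = 0.0562, 0.106, 0.0982 and 0.229). Without the 6 arrays of row D of dataset 2 they differed by 1.52 and 0.76, and both passed. Here too the arrays had been singled out by their values.

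Markers of other tissue moved along with the edge. Of 22 listed myelin genes 4 were measured, and their mean was -0.66, -0.41 and -1.20 at the edge in datasets 1 to 3, 0.20, 0.32 and 0.40 in the middle block, and 0.79, 0.69 and 0.43 in the intermediate columns. Bcas1, Cryab and Qdpr, 3 of those 4, were lower at the edge in both comparisons, Bcas1 by -1.65 against the middle block (adjusted p = 0.00661) and -1.97 against the intermediate columns. Of the 7 striatal genes, 4 were lower at the edge than in the intermediate columns, led by Syndig1l (-2.39) and Ppp1r1b (-2.37). Of the 4 thalamic genes 1, Prkcd, was lower at the edge than in the middle block. The lateral edge also had 2.74% of values unmeasured, against 1.57% in the middle block. The part of these in the results was not tested.

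The lower rim was set against the lower middle, 2 zones within rows A and B, whose joint mean had entered the choice of the genes. The values of the lower middle are part of that mean. The calls, ranks and shares below are therefore not independent of the choice. Chn1, Vxn and Rcor3 were higher at the rim: 3 of 6 genes passed, where 4.5% of all genes passed, 1.65% in that direction and 2.84% in the other. Chn1 read 0.13, 0.10 and 0.31 at the rim and -1.38, -1.92 and -1.90 in the lower middle. The sets were far apart, and the difference of 1.91 ± 0.36 (3.77-fold, adjusted p = 6.8e-06) was the fifth largest excess of all genes tested. Vxn read -0.45, -0.86 and -0.16 against -1.98, -2.37 and -1.37, with no overlap, a difference of 1.42 ± 0.19 (2.67-fold, adjusted p = 0.0121). Rcor3 differed by 1.40 ± 0.76 (2.64-fold, adjusted p = 0.00220), with no overlap. Dkk3 (0.49 ± 0.09, adjusted p = 0.175), Osbpl1a (0.40 ± 0.35, adjusted p = 0.163) and Cabyr (-0.27 ± 0.18, adjusted p = 0.712) did not pass.

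The call of Chn1, like the others here not independent of the choice of the genes, held without each dataset in turn. Vxn did not pass without dataset 1 (1.36, adjusted p = 0.121), dataset 2 (1.37, adjusted p = 0.0796) or dataset 3 (1.53, adjusted p = 0.0604), nor with array weights (1.40, adjusted p = 0.124) or a widened rim (1.25, adjusted p = 0.0736). Rcor3 did not pass without dataset 2 (1.01, adjusted p = 0.131). With 1 difference per dataset none of the 3 passed (adjusted p of 0.614 to 0.648). Dataset 1 had 2 of the 4 rim positions, B11 and A3. The 9 cortical markers had 5 called higher at the rim, by 0.79 to 1.69 for the leading 4 (Nrgn, Slc30a3, Zbtb18 and Pde1a), and 3 of the 6 hypothalamic and basal forebrain genes were called lower (Ndn -1.75, Gaa -1.13 and Peg3 -0.99). Striatal Ppp1r1b and Arpp21 were also higher at the rim (1.84 and 1.49), and the part of these in the results was not tested.

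**Figure D4:**
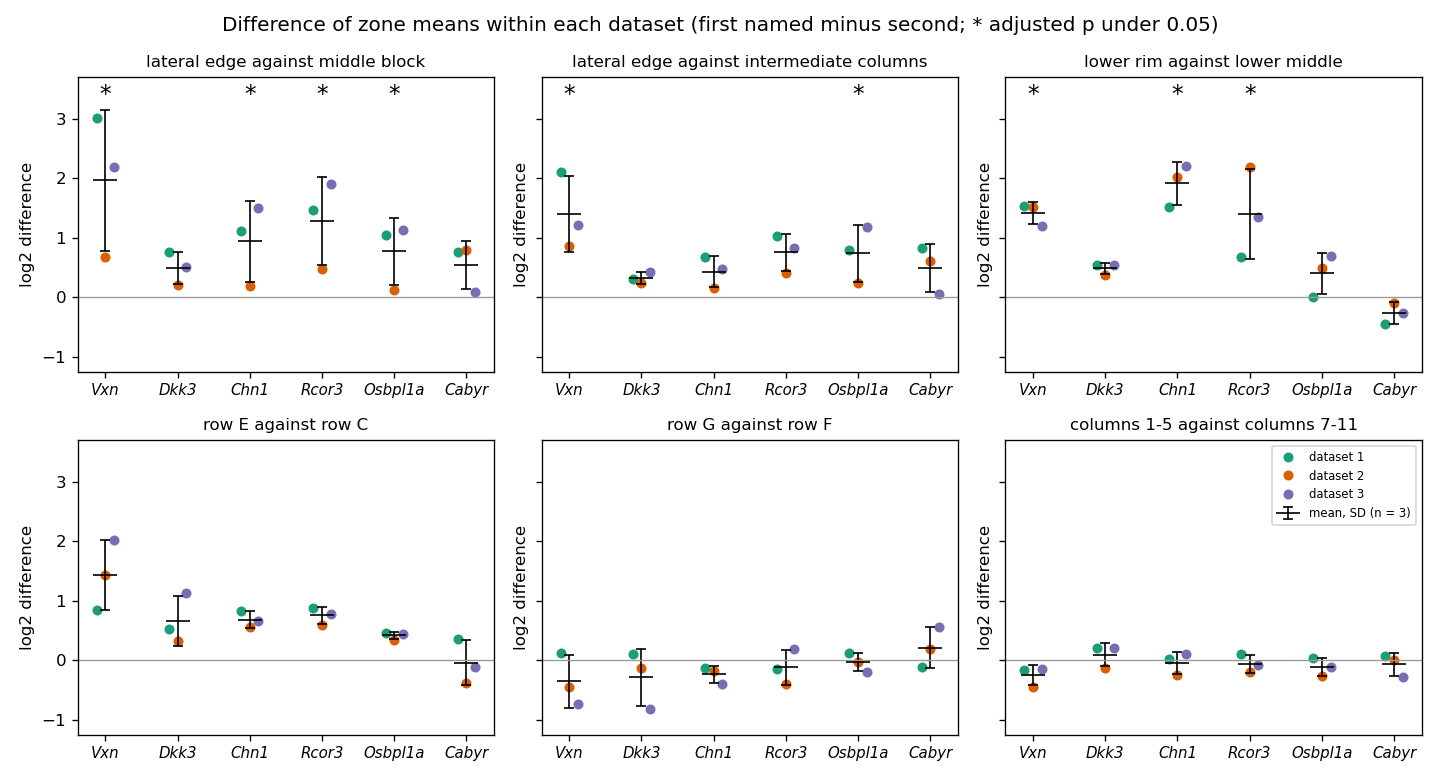
Difference of zone means within each dataset (log2 units, first named zone minus the second) for the 6 genes in the 6 tested comparisons; points are datasets, black bars the mean and SD (n = 3), and a star marks an adjusted p under 0.05. Vxn shows the highest mean in both edge panels (1.96 and 1.40), Chn1 the highest in the lower rim panel (1.91), and no star appears in the other 3 panels. The lower rim panel lies within rows A and B, whose mean entered the choice of the genes, so its stars are not independent of that choice.

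Between rows E and C, compared column by column, Vxn was higher in row E by 0.85, 1.43 and 2.02 in datasets 1 to 3, a mean of 1.43 ± 0.59. Rcor3 (0.76 ± 0.14), Chn1 (0.69 ± 0.14), Dkk3 (0.66 ± 0.42) and Osbpl1a (0.42 ± 0.06) were also higher in row E in 3 of 3 datasets, and Cabyr was not (-0.04 ± 0.38). Vxn, Dkk3, Chn1 and Rcor3 did not overlap between the rows, and the share of all genes without such overlap was not counted. No gene passed in this test of 3 differences (0% of 15608 genes by limma, 1378 at an unadjusted p under 0.05), with adjusted p from 0.494 to 0.511 for those 5 genes and 0.944 for Cabyr. In the middle columns, 5 to 7, row E was above row C without overlap for Chn1 (1.30 ± 0.15), Vxn (1.68 ± 2.01), Dkk3 (1.04 ± 1.03) and Rcor3 (0.64 ± 0.35), as for 5.63% of all genes, but not for Osbpl1a (-0.20 ± 0.18) or Cabyr (-0.84 ± 0.40). Dataset 3 set the size for Vxn (3.99) and Dkk3 (2.23), whose means without it were 0.52 and 0.45. These column sets were described and not tested. Over genes measured on every array alone, which drops Vxn, Dkk3 and Cabyr, Chn1 (0.69, adjusted p = 0.00578) and Rcor3 (0.76, adjusted p = 0.00303) passed.

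Between rows G and F none of the 6 genes passed. Chn1 was lower in row G in 3 of 3 datasets, by -0.13, -0.18 and -0.40 (-0.24 ± 0.15, adjusted p = 0.614), and the sets overlapped. The other 5 genes had mean differences between -0.35 (Vxn) and 0.22 (Cabyr), with adjusted p from 0.608 to 0.960. By limma 0% of all genes were called, with 1886 under 0.05 before adjustment. The 2 sides of the grid, columns 1 to 5 against the mirror columns 7 to 11, gave differences between -0.25 ± 0.17 (Vxn, lower on the first side in 3 of 3 datasets) and 0.10 ± 0.20 (Dkk3), with adjusted p of at least 0.958 and 0% of genes passing (522 at an unadjusted p under 0.05). The difference between edge and middle was also compared between rows E and C. It was smaller in row E for Chn1 in 3 of 3 datasets (-1.09, -0.67 and -1.50) and larger for Osbpl1a (1.36, 1.03 and 0.43). None of the 6 passed (adjusted p of at least 0.912), and neither did any other of 15384 genes (0%).

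The genes whose maps came closest to each of the 6 were named by the lowest of the 3 within-dataset correlations over single arrays, among 8446 other genes with a symbol. Rcor3 came closest to Nrgn, with 0.948, 0.952 and 0.921 in datasets 1, 2 and 3. Nrgn encodes neurogranin, a calmodulin-binding protein of the dendrites of forebrain excitatory neurons. That is higher than the correlation of the 2 rows of Chn1, which read the same gene, at 0.901, 0.921 and 0.894. Nrgn at the edge exceeded the middle block by 1.60 (adjusted p = 0.0146) and at the lower rim exceeded the lower middle by 1.69, beside 1.28 and 1.40 for Rcor3. For 5 of the 7 rows (those of Dkk3, Rcor3, Osbpl1a and Cabyr, and 1 of Chn1) the RefSeq entry does not list the row's accession, so their identity rests on the array annotation alone.

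**Figure D5:**
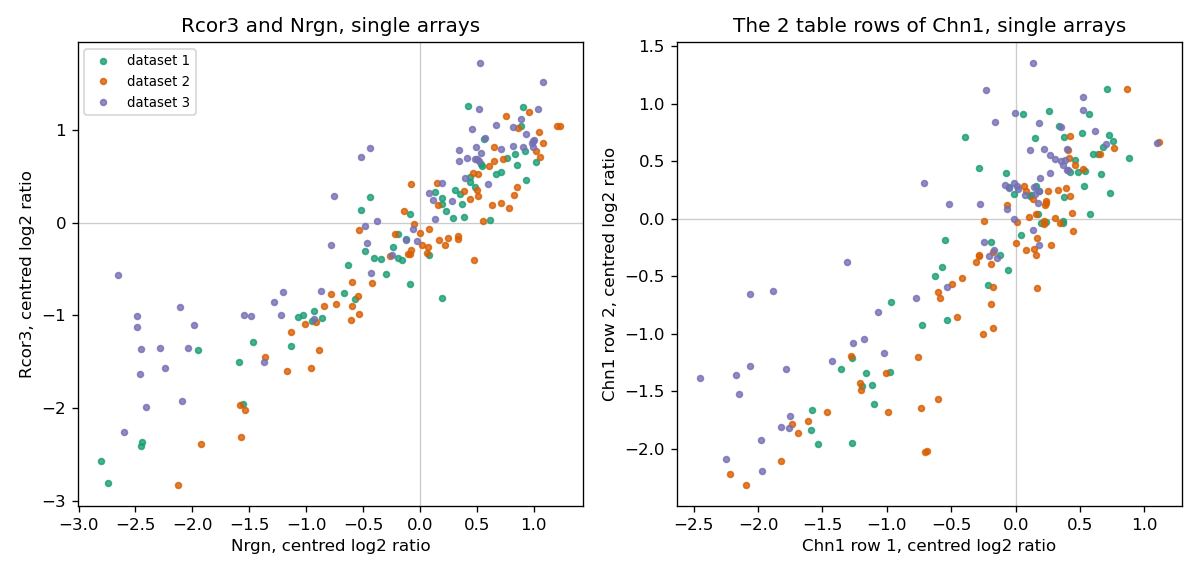
Centred log2 ratios (log2 units) of single arrays: Rcor3 against Nrgn on the left and the 2 table rows of Chn1 on the right, coloured by dataset. Both clouds follow a rising line, and the dataset 3 arrays with the lowest Nrgn values lie above that line on the left.

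Chn1 was also nearest to Nrgn (lowest of 3 correlations 0.870), then to Egr1 (0.847), an immediate early transcription factor. Vxn was nearest to Dkk3 (0.739) and to Arc (0.729), an activity-induced gene of the synapse. Dkk3 was nearest to Vxn and then to Igfbp4 (0.726), a binding protein of insulin-like growth factors. The second gene of Rcor3 was Chn1 (0.845). Osbpl1a had looser neighbours, Cx3cl1 (0.652), the chemokine fractalkine, and AW112037 (0.651). Cabyr had R3hdm2 (0.429) and 1110008P14Rik (0.428), so no gene followed its map closely.

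The families of the 6 genes are given by counts, beside the shares of all genes above. Of the Dickkopf and Wnt list, 25 of 59 genes were measured in all zones; in the 4 zone comparisons only Apc, a brake on beta-catenin, passed (0.44 at the lower rim, adjusted p = 0.0317). Of the list of Rac and ephrin signalling genes, 37 of 70 were measured. Against the middle block Chn1 was higher and Prkcd, a protein kinase C (-1.82), lower at the edge. At the lower rim Chn1, Baiap2 (1.66) and Tiam2 (0.94), an activator of Rac, were higher, and the ephrin Efnb3 (-1.02) and 1 more gene were lower. Of 16 measured of 24 CoREST complex genes, Rcor3 alone passed at the edge, and Ctbp2, another corepressor, was lower at the rim (-0.44). Of 15 measured of 25 oxysterol-binding genes Osbpl1a alone passed. None of 6 measured of 17 fibrous sheath genes passed. Of 11 measured of 25 proneural genes Vxn passed, and Id2, an inhibitor of proneural factors, was higher at the rim (0.86). In the edge comparison with the middle block the medians of these 6 lists lay between -0.04 and 0.07, beside 0.01 for all genes. The remaining lists, of choroid plexus and meninges, hippocampus and inhibitory neurons, had 1 gene (Ttr, -1.66), none and 1 gene (Sst, 0.81) called at the edge against the middle block. Of 15 inhibitory genes 3 were measured, and Sst was the only 1 higher at the edge, with a list median of -0.38. Of 18 choroid plexus and meninges genes 11 were measured, 4 of them higher at the edge, with a median of -0.23.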

How the data were processed

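The authors deposited one table of log2 ratios of voxel RNA against whole brain RNA, with 20847 rows; per the labels' protocols, RNA was extracted with Trizol and coupled to Cy dyes after reverse transcription. Scanner, background correction and normalization have no entry (not given in the sources used here). In the deposited log2 values each row is centred on its own median. The lowest value, -6.64, occurs 19322 times and was treated as not measured. Arrays were centred on their median over 7962 rows measured on every array. A row had to be measured on 80% or more of the arrays in each dataset. After removal of 20 control rows and averaging of rows with one symbol, there were 15608 genes, 15472 of them with a value in every zone.

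Zones were compared with limma 3.58.1 in R 4.3.3 on 27 zone means per gene (9 zones, 3 datasets, the dataset as a block), two-sided, with Benjamini-Hochberg adjustment over all genes at 0.05. Rows E and C and the 2 sides were compared by 1 difference per dataset against 0. The code was tested on simulated data. The dataset numbers name shared harvests, per the labels, and deviations of zones of one dataset correlated at a median of 0.489 (lowest pair 0.138), so they pair the values. The lowest correlation of 2 arrays of one dataset was -0.46, and 0.0824% of such pairs lay under -0.30. Arrays give no read depth, so their number limits the precision.

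The 6 genes, the zones and the gene lists were chosen with earlier results of these data known. Named genes were the 6, the 2 most alike each, and up to 4 listed genes passing a comparison. Alternatives covered the block, the spread, floor values, centring, normalization, row filters, datasets, positions, row D of dataset 2, zone values, weights and limits.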

Additional observations from a re-analysis of the deposited data

How the results depend on the processing

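Of the differences of the 6 genes under other settings, 437 kept direction and side of the threshold, 48 lost their call, 2 gained one and 17 changed sign; all 42 zone levels stayed within 1 SD. The cause was not tested.

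Edge against middle block: 57 genes and 4 of the 6 passed, but 6 genes (1 of the 6) with no replicate block, 0 (0) with 1 difference per dataset, 0 to 18 (0 to 3) without 1 replicate, 155 without 6 arrays of row D of dataset 2, 89 with array weights, 23 with a widened edge, 137 without row D (chosen after seeing the data), and 0 of the 6 after quantile normalization. Edge against intermediate columns: 83 genes and 2 of the 6, but 23 (0) with no replicate block, 4 (0) with 1 difference per dataset, 192 (0) after quantile normalization, 138 (1) for rows measured on every array, 9 to 12 (0 to 0) without 1 replicate, 191 with weights, 24 (1) with a widened edge, and 1 of the 6 with floor values kept, positions of all 3 datasets or zone medians. Row G against row F: 0 genes, but 1 after quantile normalization, 2 for rows measured on every array and 1 with weights. Lower rim: 696 genes and 3 of the 6, but 97 with no replicate block, 0 (0) with 1 difference per dataset, 8 to 501 (1 to 2) without 1 replicate, 296 for positions of all 3 datasets, 137 with weights and 121 with a widened rim. Row E against row C: 0 genes, but 43 and 2 of the 6 (Chn1, Rcor3) for rows measured on every array. The 6 arrays of row D of dataset 2 were singled out by their values.

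Signs changed only for differences that passed no test. In row G against row F, Osbpl1a changed for positions of all 3 datasets (0.016) and zone medians (0.018), and Cabyr with floor values kept (-0.35), after quantile normalization (-0.17) and without 3 arrays of row G of dataset 3 (-0.044, chosen after seeing the data); without 1 replicate, Rcor3 ranged from -0.27 to 0.020 and Osbpl1a from -0.11 to 0.050. Cabyr changed at the lower rim after quantile normalization (0.059) and with a widened rim (0.19), and in row E against row C with floor values kept (0.20), for positions of all 3 datasets (0.012) and zone medians (0.18), and from -0.25 to 0.13 without 1 replicate. Between the sides, leaving out 1 replicate gave Chn1 -0.11 to 0.060, Rcor3 -0.14 to 0.0095 and Cabyr -0.14 to 0.041, and Chn1 read 0.0013 without the 6 arrays.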
